A study of Mus musculus with 10 samples.

Results

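Pancreas of mouse embryos that lack Fgf9 was compared with that of their control littermates at embryonic day 14.5 (E14.5) by bulk RNA sequencing. The groups compared are 5 of the study's 10 libraries, picked by their stage label alone. They are 2 null pools, of 4 and 3 pancreata, and 3 control pools, of 8, 7 and 6. Null embryos were Fgf9 -/-, with a LacZ cassette in the Fgf9 locus that is stated to abolish its function, and controls mixed Fgf9 +/+ and +/- embryos in shares that the labels do not give. All embryos were of the Fgf9 LacZ line on a C57BL/6J background. The other 5 libraries form the same 2 groups at E13.5, 2 null and 3 control pools. They entered the same fit, and the p-values use a spread shared by all 10 libraries. Each library is a pool of whole organs, and nothing in the labels ties the pools of a group to separate litters, so the p-values speak to the spread between these pools.

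Fgf9 encodes a secreted fibroblast growth factor. In developing organs such as lung and gut it is made by epithelium and mesothelium, the cell sheet that covers the organ, and signals through FGF receptors to the mesenchyme between them. Mesenchyme of the embryonic pancreas supplies growth signals to the epithelium that forms acinar, duct and endocrine cells, and gives rise to fibroblasts and smooth muscle. The mesenchyme beside the dorsal pancreas also forms the spleen, under transcription factors that include Tlx1, Nkx2-5, Nkx3-2 and Barx1.

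The null libraries held 17736769 and 20842606 counts and the control libraries 18321734 to 19254562. Mitochondrial genes took 2.53% and 2.73% of the counts in null pools and 2.3% to 2.87% in control pools. Of 54532 genes, 18898 passed the filter on low counts and were tested. Levels are given as CPM, the counts of a gene relative to its library's total, scaled between libraries, and pool values are listed in the order null 1 and null 2, against control 1, 2 and 3. A gene is called, and is said to rise or fall, when its adjusted p from edgeR's quasi-likelihood test was under 0.05 over all genes tested. CPM do not take gene length into account and are compared within a gene only.

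The counts of the targeted gene did not separate the groups. Fgf9 (ENSMUSG00000021974, chr14:58070547-58112720, build mm10) was at 11.7 and 6.14 CPM in null pools, against 13.7, 8.76 and 6.96 CPM in control pools. The groups overlapped, and the log2 fold change, null over control here and below and given in brackets as log2, was -0.14 (SE 0.35, edgeR adjusted p = 0.96). It was 0.18 without control 1 and 0.26 without null 2. An inserted cassette can leave parts of a transcript that are still counted, and the labels do not say which parts were removed, so this count does not check the labels. The groups are therefore named by their labels throughout.

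Genes of the Y chromosome differed between the pools. The summed level of Ddx3y, Uty, Kdm5d and Eif2s3y was 20.4 and 0 CPM in null pools, the second with 0 counts, against 139, 93.6 and 38.3 CPM in control pools. The X-linked transcript Xist, made where an X chromosome is silenced, was at 1324 and 1363 CPM in null pools and at 774, 1012 and 1181 CPM in control pools. The sex makeup of the E14.5 pools thus moved with the genotype label, and the 2 cannot be told apart by the groups alone. At E13.5 the same sum was 59.4 and 83.6 CPM in null pools and 54.4, 101 and 96.4 CPM in control pools, which overlap. Libraries also stood apart in ways that cross the groups. On the first principal component, which held 50.8% of the variance of the 5 libraries, null 1 and control 1 lay at -45.5 and -20.8, against 7.07 for null 2, 26.3 for control 2 and 32.9 for control 3. Null 1 and control 1 were also the pools low in acinar transcripts, as given with the acinar genes.

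**Figure D1:**
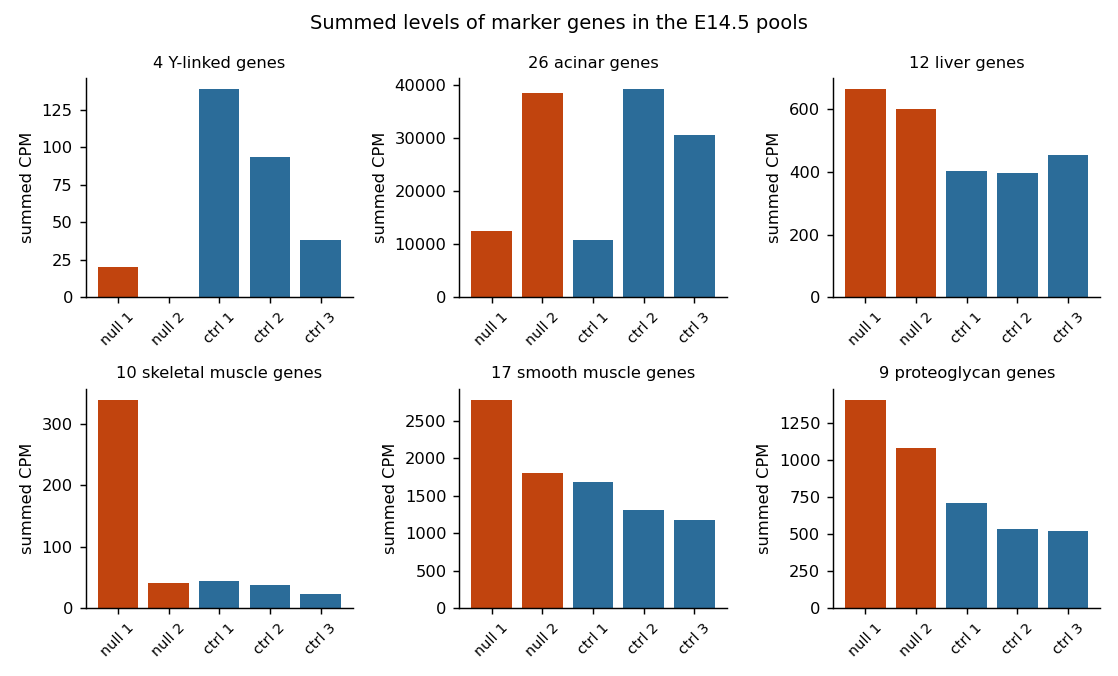
Summed CPM of 6 gene lists in each of the 5 E14.5 pools, null in orange and control in blue, with 1 bar per pool and so no error bar. Y-linked genes were lowest in the 2 null pools, acinar genes were lowest in null 1 and control 1, and skeletal muscle genes reached 340 CPM in null 1 against 41.1 CPM in null 2.

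Across all genes, 15 were higher in null pancreas (0.0794% of those tested) and 6 were lower (0.0317%). The higher genes included matrix proteoglycans, smooth muscle actins, vascular signalling genes, and Msln and Anxa1, the 2 called of 14 mesothelial genes. The median log2 fold change of those 14 was -0.07. The lower genes were led by the mesenchymal transcription factor genes Barx1 and Tlx1 and the receptor gene Ntrk2. The median log2 fold change of all genes tested was -0.02. At an unadjusted p under 0.05, 1099 genes were higher (5.82%) and 515 lower (2.73%). These are the shares to set beside counts of list members at that level below. DESeq2 called 252 higher and 43 lower and limma-voom 18 and 4. All 21 genes were among the DESeq2 calls and 17 among those of limma-voom. From the 5 E14.5 libraries alone, edgeR called 0 higher and 2 lower, Barx1 and Ntrk2. Of the 21 called genes, Barx1 and Ntrk2 stayed called without each of the 10 libraries in turn. Without control 2 they were the 2 genes called, both lower, and 0 were higher. Without control 3 there were 0 higher and 3 lower, with Col7a1 added, and without null 1 there were 6 higher and 11 lower, among which 6 of the 21 remained (Lum, Acta2, Tlx1, Col7a1, Barx1 and Ntrk2). There were 234 higher and 25 lower without control 1, 119 and 12 without null 2, and 7 and 5 without E13.5 control 2 or E13.5 control 3, which enter through the shared spread. Without both E14.5 pools numbered 1, 57 genes were higher and 19 lower, and 16 of the 21 were among them. With the summed Y-linked level as a covariate, 1 gene was higher and 2 were lower. The 2 were Barx1 and Ntrk2 (edgeR adjusted p = 0.018 each), the only ones of the 21 still called. The 1 higher gene was not among the 15.

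**Figure D2:**
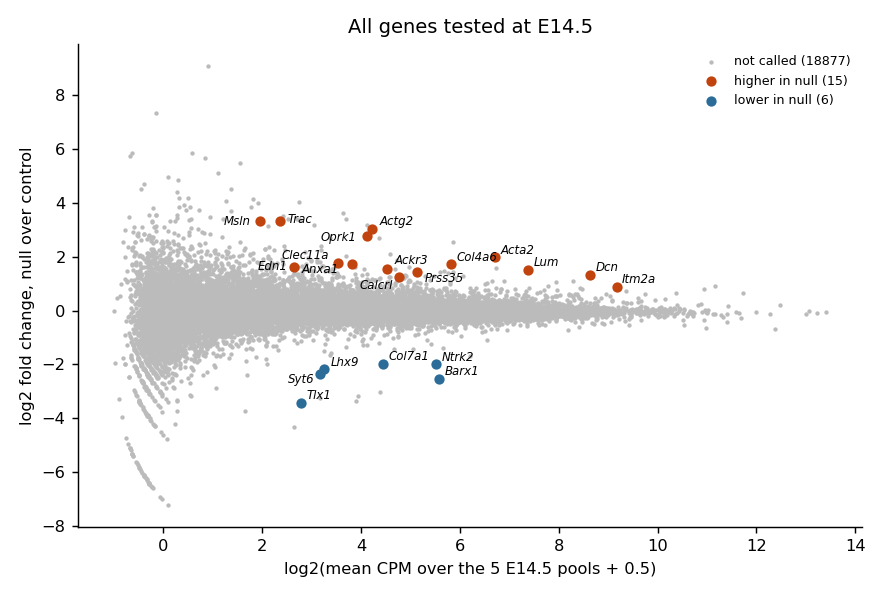
Log2 fold change, null over control, against the log2 of the mean CPM plus 0.5 for the 18898 genes tested at E14.5, with 1 point per gene. The 15 called higher genes, in orange, and the 6 called lower genes, in blue, span low to high levels, among all other genes tested in grey.

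Among mesenchymal transcription factor genes 3 fell in null pancreas, and 2 of them, Barx1 and Tlx1, act in the mesenchyme that forms the spleen. Barx1 (chr13:48662998-48666507), a homeobox gene needed in mouse for stomach and spleen formation, was at 10.7 and 13.8 CPM in null pools, against 82.1, 66.1 and 63.3 CPM in control pools. The highest null pool was far below the lowest control pool, and Barx1 fell 5.76-fold, with a log2 fold change of -2.53 (SE 0.20, edgeR adjusted p = 0.00021). Tlx1 (chr19:45150680-45156943), without which mice form no spleen, was at 0.502 and 1.35 CPM in null pools, against 10.03, 10.7 and 9.57 CPM in control pools. Both null pools were again below every control pool, and Tlx1 fell 10.7-fold, with a log2 fold change of -3.42 (SE 0.44, edgeR adjusted p = 0.015). Without null 2 it was -4.31. Lhx9 (chr1:138825186-138848577), a LIM homeobox gene required for the mouse gonad, was at 2.29 and 3.45 CPM in null pools, against 16.4, 14.01 and 8.85 CPM in control pools, and fell 4.55-fold (log2 -2.18, SE 0.34, edgeR adjusted p = 0.030). In whole organs, fewer cells that make a transcript and less of it per cell cannot be told apart, here and below.

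Other factors of spleen mesenchyme did not pass the test. Nkx3-2, which acts in early spleen growth, was at 6.92 and 1.85 CPM in null pools, against 13.4, 15.2 and 12.1 CPM in control pools (log2 -1.64, edgeR adjusted p = 0.16), with log2 fold changes of -2.87 without null 1, where it was called, and -0.97 without null 2. Nkx2-5, a homeobox gene of heart and spleen, was near the limit of the counts, at 0.167 and 0 CPM in null pools and 1.46, 1.73 and 0.223 CPM in control pools (edgeR adjusted p = 0.23). Other members that are also made outside spleen mesenchyme had positive or small differences. Tcf21, needed for spleen growth, had a log2 ratio of 1.11 (edgeR adjusted p = 0.23), Nr2f2 of 0.06 and Wt1 of -0.33. Of the 10 genes of this list, 2 fell, 0 rose and 8 did not pass, beside 0.111% called among all genes. In 4 genes both null pools lay below all controls and in 2 above all, beside 11.8% below and 11.9% above among all genes. The list's median log2 fold change was -0.14. Of 16 other mesenchymal transcription factor genes only Lhx9 was called. Among those not called, Prrx1, a limb and body wall mesenchyme factor, had a log2 ratio of -0.73 (edgeR adjusted p = 0.23). Those of Hand2, Osr1 and Zeb2 were 0.33, -0.07 and 0.13. Lhx2 had one of 3.47 (edgeR adjusted p = 0.34), at 0.335 and 5.99 CPM in null 1 and null 2. Foxf1 had one of 1.03 and Meox2 one of -0.91 (edgeR adjusted p = 0.46 and 0.65). Of the 16 log2 fold changes 7 were positive and 9 negative. Their median was -0.07, with -0.71 without null 1 and 0.26 without null 2.

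A receptor, a vesicle protein and an anchoring collagen fell along with them. Ntrk2 (chr13:58806569-59133970), the receptor for brain-derived neurotrophic factor, was at 18.1 and 14.7 CPM in null pools, against 59.0, 70.7 and 65.4 CPM in control pools. Its pools were tight within each group and far apart between them, a fall of 3.97-fold (log2 -1.99, SE 0.16, edgeR adjusted p = 0.00021). Syt6 (chr3:103575231-103645569), of the synaptotagmin family of membrane fusion proteins, was at 2.90 and 2.05 CPM in null pools, against 16.1, 10.3 and 11.5 CPM in control pools, and fell 5.11-fold (log2 -2.35, SE 0.36, edgeR adjusted p = 0.030). Col7a1 (chr9:108953586-108984875), the collagen of the fibrils that anchor epithelial basement membranes, was at 8.82 and 6.44 CPM in null pools, against 36.2, 33.3 and 20.99 CPM in control pools. It fell 3.96-fold (log2 -1.99, SE 0.27, edgeR adjusted p = 0.018).

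Ntrk2 was the 1 called gene of 12 tested for neurotrophins, glial ligands and their receptors. Of the 12 log2 fold changes 10 were positive, and their median was 0.64. Ngfr, the low-affinity neurotrophin receptor gene, was at 56.0 and 27.7 CPM in null pools, against 26.3, 8.07 and 8.35 CPM in control pools (log2 1.55, edgeR adjusted p = 0.21), with log2 fold changes of 0.95 without null 1 and 2.35 without control 1. Ret, the receptor tyrosine kinase of glial ligands, had a log2 ratio of -0.34 (edgeR adjusted p = 0.85).

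**Figure D3:**
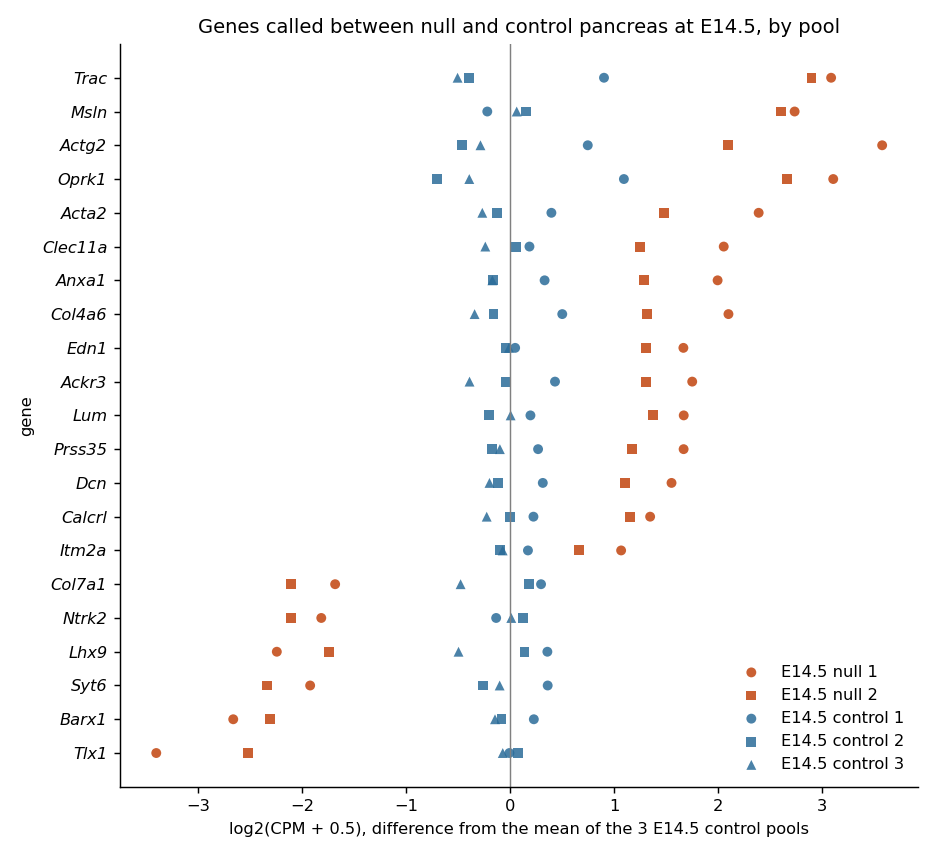
The 21 genes called at E14.5, each pool's log2(CPM + 0.5) minus the mean of the 3 control pools, with null in orange, control in blue and 1 symbol per pool. Both null pools lie outside the range of the 3 control pools for all 21 genes, which is what the test selects for.

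Both smooth muscle actins rose in null pancreas. Acta2 (chr19:34241090-34255590), smooth muscle alpha actin, was at 246 and 131 CPM in null pools, against 61.4, 42.5 and 38.6 CPM in control pools, and rose 3.96-fold (log2 1.99, SE 0.26, edgeR adjusted p = 0.015). Actg2 (chr6:83512905-83536265), the gamma actin of visceral muscle, was at 56.9 and 20.1 CPM in null pools, against 7.58, 3.00 and 3.45 CPM in control pools, and rose 8.17-fold (log2 3.03, SE 0.42, edgeR adjusted p = 0.018). In both genes null 1 was the highest pool, null 2 the next and control 1 the highest of the controls. Without null 1 the log2 fold change of Actg2 was 2.09. Actin genes are near-identical in coding sequence, so reads may have been shared among them and the single values are uncertain. Contractile genes named next had the same order of pools and did not pass. Myh11, the smooth muscle myosin heavy chain, was at 65.3 and 15.7 CPM in null pools, against 9.43, 4.96 and 4.51 CPM in control pools (log2 2.68, edgeR adjusted p = 0.055), and its log2 fold change was 1.31 without null 1. Myl9, a myosin light chain, was at 133 and 70.5 CPM in null pools, against 48.7, 43.9 and 34.1 CPM in control pools (log2 1.27, edgeR adjusted p = 0.059). Tpm2, a tropomyosin, had a log2 ratio of 1.45 (edgeR adjusted p = 0.063), and of 0.83 without null 1. Cnn1, the thin filament protein calponin, was at 20.3 and 2.80 CPM in null pools, against 1.66, 0.461 and 1.11 CPM in control pools (log2 3.40, edgeR adjusted p = 0.094), and its log2 fold change was 1.36 without null 1.

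Of 17 smooth muscle genes tested, 2 rose, 0 fell and 15 did not pass. In 13 both null pools lay above all controls and in 0 below, beside 11.9% above and 11.8% below among all genes. The median log2 fold change was 1.36, and 16 of 17 values were positive. Without null 1 the median was 0.74 and 1 gene was called, and without null 2 it was 1.66 and 8 were called. The summed level was 2780 and 1800 CPM in null pools, against 1680, 1310 and 1180 CPM in control pools. Without both pools numbered 1 the median was 0.96 and 2 genes were called. With DESeq2 9 were higher. The summed level of skeletal muscle genes was high in null 1 alone. It was 340 and 41.1 CPM in null pools, against 44.1, 38.2 and 23.4 CPM in control pools. Intestinal genes summed to 57.6 and 26.4 CPM in null pools, against 17, 25.4 and 25.1 CPM in control pools. The part of either tissue in the smooth muscle values was not tested.

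Because several contractile genes had the same order of pools, their promoters were searched for the CArG box, the binding letters of serum response factor, a factor known to drive contractile genes. The letters searched were CC, then 6 letters that are A or T, then GG, and in a second search the same with 1 of the 6 being G or C, on both strands, in the 250 bases before each RefSeq start (GRCm38.p6). Of the 17 genes 13 had a promoter in the table. Actg2, Tagln, Myh11 and Myocd had none there and were not searched. An exact box was present in 1 of the 13, Myl9, and a box with 1 changed letter in 3, Acta2, Myl9 and Pdlim3. Among 32851 promoters of the same length, 1.47% held an exact box and 7.24% a box with 1 changed letter. The promoters of the called gene Acta2 and of Myl9 are shown 5′ to 3′ on the gene's strand, with the boxes in capitals. Acta2 is from chr19:34255374-34255623 on the minus strand and Myl9 from chr2:156775214-156775463 on the plus strand. Distances count from the RefSeq starts, which differ from the GENCODE gene starts. The GENCODE genes begin inside these windows, at chr19:34255590 for Acta2 and chr2:156775420 for Myl9.
Acta2: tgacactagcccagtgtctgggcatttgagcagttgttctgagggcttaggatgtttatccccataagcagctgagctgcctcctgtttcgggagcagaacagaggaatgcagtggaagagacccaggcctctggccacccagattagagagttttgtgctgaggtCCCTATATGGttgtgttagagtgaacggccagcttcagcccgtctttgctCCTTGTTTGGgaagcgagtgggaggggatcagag
Myl9: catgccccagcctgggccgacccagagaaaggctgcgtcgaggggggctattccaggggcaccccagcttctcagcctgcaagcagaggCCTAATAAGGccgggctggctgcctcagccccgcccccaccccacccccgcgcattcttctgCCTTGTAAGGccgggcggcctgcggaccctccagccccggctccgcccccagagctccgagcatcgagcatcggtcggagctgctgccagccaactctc
In Acta2 the boxes CCCTATATGG and CCTTGTTTGG begin 84 and 34 bases before the start, and each has 1 changed letter. In Myl9 the exact box CCTAATAAGG begins 161 bases before the start and CCTTGTAAGG, with 1 changed letter, begins 99 bases before it. These are matches of letters in a window, and binding was not measured.

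A pair of small proteoglycans that bind collagen fibrils rose as well. Lum (chr10:97565128-97572703), lumican, was at 302 and 245 CPM in null pools, against 108, 82.2 and 94.9 CPM in control pools, and rose 2.87-fold (log2 1.52, SE 0.18, edgeR adjusted p = 0.0083). Dcn (chr10:97479609-97518143), decorin, was at 716 and 525 CPM in null pools, against 304, 225 and 213 CPM in control pools, and rose 2.51-fold (log2 1.33, SE 0.19, edgeR adjusted p = 0.018). For both, the lower null pool was well above the highest control pool. Biglycan, Bgn, had both null pools above all controls and a log2 fold change of 0.74, which did not pass (edgeR adjusted p = 0.12). The relatives Fmod and Ogn, with log2 fold changes of 0.46 and 0.21, overlapped between the groups. Of 9 small proteoglycan genes tested, 2 rose, 0 fell and 7 did not pass, and 3 had both null pools above all controls, beside 11.9% of all genes. Their median was 0.50.

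Fibrillar collagen and elastic fibre genes had smaller, uncalled differences. Clec11a (chr7:44302687-44306902), a secreted factor that promotes bone formation, was the 1 called of 19 fibroblast matrix genes. It was at 24.6 and 13.9 CPM in null pools, against 6.37, 5.77 and 4.62 CPM in control pools, and rose 3.43-fold (log2 1.78, SE 0.29, edgeR adjusted p = 0.038). All 19 log2 fold changes were positive, their median was 0.62, and 10 genes had both null pools above all controls, beside 11.9% of all genes. Col1a1, a chain of the main fibrillar collagen, was at 3991 and 2363 CPM in null pools, against 2244, 1691 and 1156 CPM in control pools (log2 0.90, edgeR adjusted p = 0.22). Another collagen, Col3a1, had a log2 ratio of 0.64 and elastin, Eln, one of 1.04, and neither passed (edgeR adjusted p = 0.33 and 0.21). Mfap4, a microfibril protein gene, had one of 1.11 (edgeR adjusted p = 0.15). The summed level of the list was 18100 and 11300 CPM in null pools, against 11500, 8850 and 6920 CPM in control pools, so null 2 did not exceed control 1.

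Basement membrane genes changed in opposite directions. Col4a6 (chrX:141165403-141474076), a collagen IV chain of smooth muscle basement membranes, was at 122 and 70.4 CPM in null pools, against 39.9, 25.1 and 22.1 CPM in control pools, and rose 3.31-fold (log2 1.73, SE 0.28, edgeR adjusted p = 0.037). Col7a1 fell, as given above. Col4a5, which lies beside Col4a6 and joins it in the same collagen network, had a log2 ratio of 0.84 (edgeR adjusted p = 0.14). The other 20 of 22 genes were not called, among them Col4a1 at 0.04 and Lamc1 at -0.12, and the list's median was 0.00. Prss35 (chr9:86743649-86758443), of the trypsin-like serine protease family and on no list, was at 65.3 and 46.2 CPM in null pools, against 24.5, 17.9 and 18.9 CPM in control pools, and rose 2.73-fold (log2 1.45, SE 0.20, edgeR adjusted p = 0.018). Of 18 matrix protease and inhibitor genes edgeR called 0, limma-voom 0 and DESeq2 1, lower, and 3 were higher and 2 lower at an unadjusted p under 0.05. Htra1, a secreted serine protease, was at 22.3 and 22.02 CPM in null pools, against 39.0, 43.8 and 40.6 CPM in control pools (log2 -0.89, edgeR adjusted p = 0.054).

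Mesothelial genes did not move together. Msln (chr17:25748613-25754378), mesothelin, a surface protein of mesothelium, was at 7.65 and 6.94 CPM in null pools, against 0.552, 0.865 and 0.779 CPM in control pools. It rose 9.92-fold (log2 3.31, SE 0.48, edgeR adjusted p = 0.026). Anxa1 (chr19:20373428-20390944), annexin A1, a phospholipid-binding protein that dampens inflammation and is made by many cell types, was at 29.2 and 17.7 CPM in null pools, against 8.88, 6.17 and 6.12 CPM in control pools. It rose 3.31-fold (log2 1.73, SE 0.26, edgeR adjusted p = 0.030). The mesothelial surface gene Upk3b was at 168 and 136 CPM in null pools, against 108, 93.7 and 58.1 CPM in control pools (log2 0.81, edgeR adjusted p = 0.26). Aldh1a2, the enzyme that makes retinoic acid in mesothelium and mesenchyme, pointed the other way, at 49.3 and 34.5 CPM in null pools against 91.6, 83.6 and 63.9 CPM in control pools (log2 -0.93, edgeR adjusted p = 0.12). Wt1, Lrrn4 and Pkhd1l1 had log2 fold changes of -0.33, -0.52 and -1.28. Of 14 genes 2 rose, 0 fell and 12 did not pass. The median was -0.07, and 4 genes had both null pools above all controls and 2 below, beside 11.9% and 11.8% of all genes.

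Edn1, Ackr3 and Calcrl, of vascular and chemokine signalling, rose in null pancreas, while no endothelial marker was called. Edn1 (chr13:42301476-42307990), the vasoconstrictor endothelin 1, was at 10.9 and 8.39 CPM in null pools, against 3.21, 3.00 and 3.06 CPM in control pools, and rose 3.11-fold (log2 1.64, SE 0.25, edgeR adjusted p = 0.029). Its receptor gene Ednrb was at 94.1 and 65.3 CPM in null pools, against 48.7, 32.1 and 34.4 CPM in control pools (log2 1.05, edgeR adjusted p = 0.057), and Ednra had a log2 ratio of 0.80 (edgeR adjusted p = 0.32). Ackr3 (chr1:90203980-90216751), which takes up the chemokine CXCL12, was at 42.9 and 31.4 CPM in null pools, against 16.9, 12.1 and 9.35 CPM in control pools, and rose 2.90-fold (log2 1.54, SE 0.23, edgeR adjusted p = 0.029). Cxcl12 itself was at 557 and 366 CPM in null pools, against 270.4, 189 and 189 CPM in control pools (log2 1.09, edgeR adjusted p = 0.055). Calcrl (chr2:84330626-84425411), the receptor for adrenomedullin and calcitonin gene-related peptide, was at 43.8 and 38.2 CPM in null pools, against 19.9, 16.9 and 14.4 CPM in control pools, and rose 2.40-fold (log2 1.26, SE 0.16, edgeR adjusted p = 0.015). In each of these genes the null pools lay above every control pool.

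Of 16 angiogenic ligand and receptor genes 2 rose (Edn1 and Ackr3), 0 fell and 14 did not pass, and 10 had both null pools above all controls, beside 11.9% of all genes. Their median was 0.76. Vegfa, the main endothelial growth factor gene, was at 102 and 113 CPM in null pools, against 107, 108 and 106 CPM in control pools (log2 0.00, SE 0.15). Of 14 endothelial marker genes edgeR called 0, limma-voom 0 and DESeq2 1, Tie1, with 2 higher at an unadjusted p under 0.05, and the median was 0.14. Pecam1, an endothelial adhesion gene, was at 118 and 107 CPM in null pools, against 99.8, 102 and 105 CPM in control pools. Tie1, an endothelial receptor gene, was at 75.2 and 70.8 CPM in null pools, against 51.0, 45.03 and 46.4 CPM in control pools (log2 0.62, edgeR adjusted p = 0.057). Vwf, a clotting factor gene of endothelium and on no list, had a log2 ratio of 1.45 (edgeR adjusted p = 0.061).

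The remaining called genes were a membrane protein, an opioid receptor and a T cell receptor segment. Itm2a (chrX:107397099-107403376), a membrane protein gene of cartilage, muscle and thymus development, was at 903 and 681 CPM in null pools, against 485, 402 and 410.1 CPM in control pools. It rose 1.83-fold (log2 0.87, SE 0.14, edgeR adjusted p = 0.038). Oprk1 (chr1:5588466-5606131), the kappa opioid receptor, was at 40.4 and 29.5 CPM in null pools, against 9.63, 2.42 and 3.12 CPM in control pools, and rose 6.84-fold (log2 2.77, SE 0.43, edgeR adjusted p = 0.030). Without control 1, the highest control pool, its log2 fold change was 3.65. The other 3 opioid genes tested were not called. Penk, a gene for opioid peptides, had a log2 fold change of 0.40, and Oprd1, the delta opioid receptor, lay the other way from Oprk1. Oprd1 was at 2.51 and 1.90 CPM in null pools, against 5.02, 4.50 and 6.85 CPM in control pools (log2 -1.31, SE 0.42, edgeR adjusted p = 0.32), with both null pools below all controls.

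Trac (chr14:54220521-54224206), the constant segment of the T cell receptor alpha chain, was at 10.9 and 9.49 CPM in null pools, against 2.01, 0.519 and 0.445 CPM in control pools, and rose 10.1-fold (log2 3.33, SE 0.51, edgeR adjusted p = 0.030). Without control 1 the log2 fold change was 4.38. Other T cell genes did not follow it. Cd3e, part of the receptor complex, was at 2.23 and 3.79 CPM in null pools, against 2.56, 6.05 and 6.18 CPM in control pools (log2 -0.70, edgeR adjusted p = 0.81). Lck and Trbc1 had log2 fold changes of 0.41 and 0.67, and Cd3d, Cd3g, Cd8a and Rag1 were too low to be tested. Trac lies 3846 kb from Fgf9 on chromosome 14. Of the 100 genes tested from Trac to Fgf9, Trac was the 1 called and the median log2 fold change was 0.07.

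Feedback and target genes that FGF signalling is known to switch on were then examined. Of 14 tested, edgeR called 0, limma-voom 0 and DESeq2 1, Spry1. At an unadjusted p under 0.05 there were 2 higher and 1 lower, beside 5.82% and 2.73% of all genes. Of these 14, 3 had both null pools above all controls and 3 below, beside 11.9% and 11.8% of all genes, and the median was -0.03. Spry1, a feedback inhibitor, was at 19.1 and 19.7 CPM in null pools, against 27.0, 33.7 and 30.1 CPM in control pools, a log2 fold change of -0.64 (SE 0.15, edgeR adjusted p = 0.14). Dusp6, a phosphatase that ends the ERK signal, pointed the other way, at 46.4 and 38.8 CPM in null pools against 36.9, 34.1 and 33.7 CPM in control pools (log2 0.29, edgeR adjusted p = 0.57). Etv1, a transcription factor target, had a log2 fold change of 0.35, and Il17rd, an inhibitor, of -0.36. Among 14 FGF ligand and receptor genes no gene separated the groups, 0 were called by edgeR, limma-voom or DESeq2, 0 had an unadjusted p under 0.05, and the median was 0.02. Fgf10, the mesenchymal ligand for the pancreas epithelium, was at 14.3 and 8.39 CPM in null pools, against 10.7, 8.65 and 9.30 CPM in control pools. The receptor genes Fgfr1 and Fgfr2 had log2 fold changes of 0.01 (SE 0.13) and 0.11 (SE 0.16).

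In the lists of Wnt, retinoic acid, BMP and TGF-beta, Hedgehog, Notch, IGF, semaphorin and pericyte genes edgeR and limma-voom called 0 genes, while DESeq2 called between 0 and 4 higher and between 0 and 2 lower in each. At an unadjusted p under 0.05 the most were in BMP and TGF-beta genes, with 9 higher and 1 lower, beside 5.82% and 2.73% of all genes. Among 9 Wnt ligand genes, Wnt5a was closest, at 15.5 and 9.49 CPM in null pools, against 35.8, 36.9 and 26.8 CPM in control pools (log2 -1.41, SE 0.25, edgeR adjusted p = 0.055). Of 17 Wnt antagonists and targets, Sfrp2, a secreted inhibitor, had a log2 fold change of 1.08 and Notum, which inactivates Wnt ligands, of -0.94 (edgeR adjusted p = 0.12 and 0.24). Crabp1, a retinoic acid binding protein gene, was at 11.1 and 7.44 CPM in null pools, against 24.6, 17.7 and 18.1 CPM in control pools (log2 -1.12, edgeR adjusted p = 0.092), among 15 retinoic acid genes with a median of 0.20. Of 24 BMP and TGF-beta genes 13 had both null pools above all controls and 2 below, beside 11.9% and 11.8% of all genes, and the median was 0.38. Tgfb1 and Tgfb2, ligands that promote matrix synthesis, had log2 ratios of 0.61 and 1.10 (edgeR adjusted p = 0.15 each), the receptor gene Tgfbr2 of 0.62 (edgeR adjusted p = 0.17), and Bmp7 of -0.68 (edgeR adjusted p = 0.40). Gli1, a target of Hedgehog signalling, was at 18.2 and 9.99 CPM in null pools, against 6.42, 2.19 and 3.51 CPM in control pools (log2 1.80, edgeR adjusted p = 0.17), and Hey2, a Notch target, had a log2 ratio of 1.03 (edgeR adjusted p = 0.14). The medians were 0.10 over 12 Hedgehog genes, -0.06 over 16 Notch genes, 0.15 over 12 genes of the IGF system, 0.08 over 13 semaphorins and their receptors, and 0.18 over 11 pericyte and PDGF genes.

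Epithelial gene lists of the pancreas held no called gene. None of 16 progenitor, 26 acinar, 12 duct, 14 endocrine progenitor and 20 hormone and secretory endocrine genes was called by edgeR, and at an unadjusted p under 0.05 there were 1, 0, 1, 0 and 1 higher and 0, 0, 0, 1 and 0 lower. DESeq2 called 1 of them, the duct gene Car2 (log2 1.19), and limma-voom 0. Cpa1, a digestive enzyme gene first made in tip progenitors, was at 1683 and 4171 CPM in null pools, against 2192, 4708 and 3781 CPM in control pools. This split between pools, and not between groups, was shared by the acinar list. Its summed level was 12400 and 38500 CPM in null pools, against 10700, 39200 and 30600 CPM in control pools, with null 1 and control 1 low. The acinar median log2 fold change was -0.05, and it was 0.59 without null 1, -1.16 without null 2 and 0.13 without both pools numbered 1. Reads of the acinar trypsin and elastase families may be shared between copies, so values of single members are uncertain.

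Endocrine genes had the same kind of spread. Neurog3, which commits cells to the endocrine fate, was at 60.1 and 106 CPM in null pools, against 87.3, 73.8 and 108 CPM in control pools (log2 -0.11, SE 0.29). Gcg, glucagon, was at 291 and 732 CPM in null pools, against 414, 452 and 714 CPM in control pools (log2 -0.04, SE 0.33). Ins1, an insulin gene, was at 58.6 and 145 CPM in null pools, against 37.3, 89.8 and 81.0 CPM in control pools (log2 0.56, SE 0.45). The hormone list's median was 0.32, and -0.40 without null 2. Outside the naming rule and with their values known, Pdx1, the pancreas master regulator, had a log2 fold change of -0.27 (SE 0.20, edgeR adjusted p = 0.81), Ptf1a, of tip and acinar cells, of -0.46 (SE 0.36), and Sox9, of the trunk epithelium, of -0.27 (SE 0.27). The adhesion genes Cdh1 and Epcam had log2 ratios of -0.52 and -0.45 (edgeR adjusted p = 0.69 and 0.66). Among 26 cell cycle genes edgeR, DESeq2 and limma-voom called 0, and 1 was higher and 0 lower at an unadjusted p under 0.05. Of the 26 log2 fold changes 20 were negative, and the median was -0.14. In 7 genes both null pools lay below all controls and in 3 above, beside 11.8% and 11.9% of all genes. Mki67, a proliferation marker, was at 488 and 607 CPM in null pools, against 619.9, 783 and 755 CPM in control pools (log2 -0.39, edgeR adjusted p = 0.59).

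**Figure D4:**
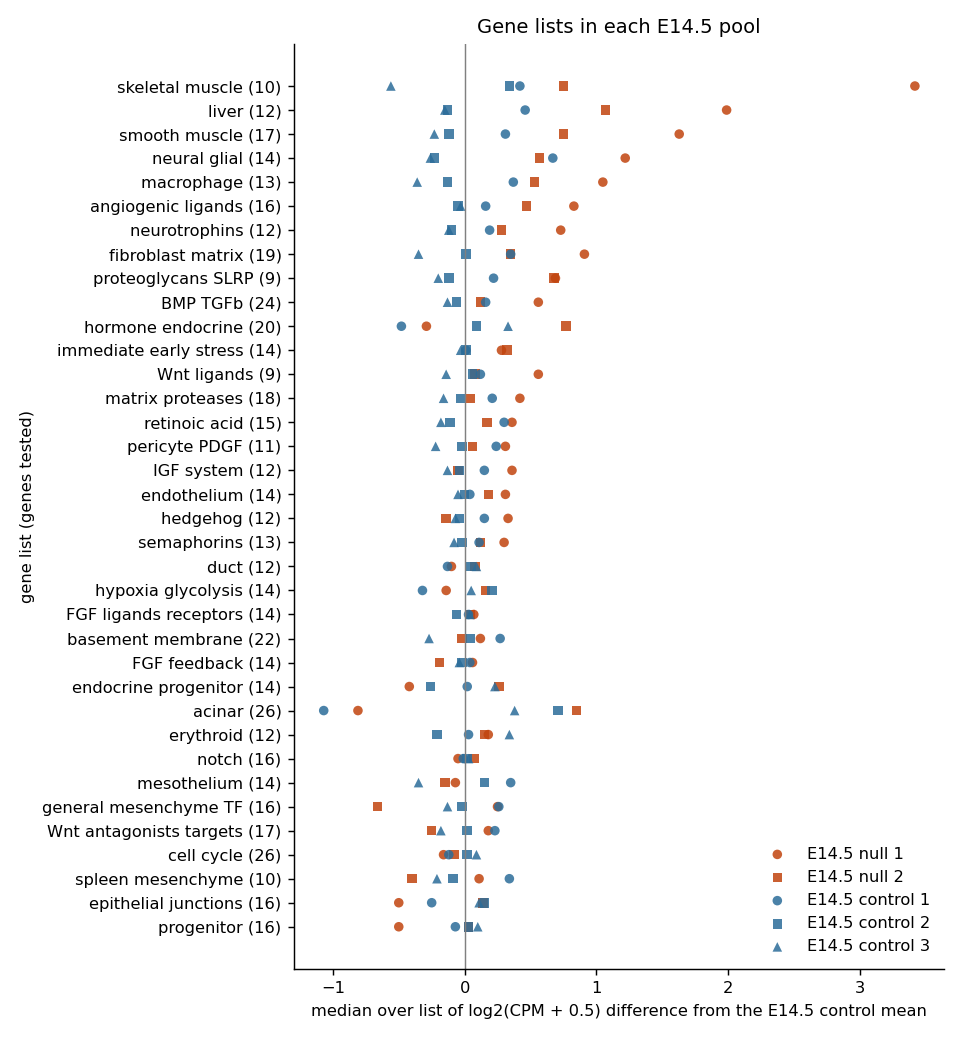
For the gene lists with at least 9 genes tested, the median over the list of each pool's log2(CPM + 0.5) minus the mean of the 3 control pools, with null in orange and control in blue. Smooth muscle, liver and skeletal muscle lists lie highest in null 1, null 2 comes second for these 3, and the acinar list splits null 1 and control 1 from the other 3 pools.

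Of genes that mark the neighbouring liver, skeletal muscle, stomach and intestine, edgeR and limma-voom called 0. The summed liver level was higher in both null pools than in every control pool, and the summed skeletal muscle level in null 1 alone. Of 12 liver genes tested 9 were higher at an unadjusted p under 0.05 and DESeq2 called 3, and of 10 skeletal muscle genes 8 were higher at that level and DESeq2 called 5. Among all genes 5.82% were higher at that level. The summed liver level was 664 and 600 CPM in null pools, against 403, 397 and 454 CPM in control pools, and 11 of the 12 genes had both null pools above all controls, beside 11.9% of all genes. Alb, albumin, was at 116 and 114 CPM in null pools, against 38.7, 14.7 and 5.07 CPM in control pools (log2 2.55, edgeR adjusted p = 0.15), with a log2 fold change of 3.54 without control 1. The liver median was 1.90, and 1.15 without null 1. Of 10 skeletal muscle genes 5 had both null pools above all controls, beside 11.9% of all genes. The summed skeletal muscle level was 340 and 41.1 CPM in null pools, against 44.1, 38.2 and 23.4 CPM in control pools. Myh3, embryonic myosin, was at 45.8 and 7.54 CPM in null pools, against 2.86, 2.60 and 1.06 CPM in control pools (log2 3.61, edgeR adjusted p = 0.069), with a log2 fold change of 1.79 without null 1. The skeletal muscle median was 2.73, and 0.71 without null 1. Intestinal Lgals4 was at 30.8 and 2.45 CPM in null pools, against 2.31, 1.27 and 1.95 CPM in control pools. Null 1 thus stood out here too. DESeq2 called 2 of the 6 intestinal genes tested, both higher, and 0 of the 4 stomach genes.

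Part of the nerve and macrophage genes separated the groups, and edgeR called 0 of them, limma-voom 0, and DESeq2 3 and 4 higher. All 14 neural and glial genes had positive log2 fold changes, with a median of 1.05, and 0.38 without null 1. Of the 14, 5 had both null pools above all controls, beside 11.9% of all genes. At an unadjusted p under 0.05, 8 were higher, beside 5.82% of all genes. Sox10, of neural crest and glia, was at 30.2 and 21.5 CPM in null pools, against 13.8, 10.3 and 11.6 CPM in control pools (log2 1.12, edgeR adjusted p = 0.17). Of 13 macrophage genes 8 had both null pools above all controls, beside 11.9% of all genes, and the median was 0.88. At an unadjusted p under 0.05, 10 of the 13 were higher, beside 5.82% of all genes. C1qb, a complement gene of tissue macrophages, was at 45.6 and 38.3 CPM in null pools, against 27.3, 19.9 and 18.8 CPM in control pools (log2 0.93, edgeR adjusted p = 0.061). Summed levels were 630 and 386 CPM in null pools, against 441, 282 and 283 CPM in control pools, for neural and glial genes, and 507 and 380 CPM, against 349, 287 and 239 CPM, for macrophage genes. The part of these tissues in the called genes was not tested. The stomach list had 4 of 9 genes tested, with 4 of the 9 at 0 counts in every E14.5 pool, and the erythroid, hypoxia, and gonad and adrenal lists had medians of -0.05, 0.04 and 0.39. Of 14 immediate early genes, which respond to stress and dissection, 7 had both null pools above all controls, beside 11.9% of all genes, the median was 0.27, and Egr1 was at 32.5 and 35.2 CPM in null pools, against 21.1, 19.4 and 20.4 CPM in control pools (log2 0.74, edgeR adjusted p = 0.064).

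Several genes fell just short of the threshold. On the higher side were Rarres2, which encodes the chemoattractant chemerin, at 18.4 and 16.3 CPM in null pools against 8.23, 6.98 and 6.40 CPM in control pools (log2 1.27, edgeR adjusted p = 0.053), and Mgp, a matrix inhibitor of calcification, at 59.3 and 28.5 CPM in null pools against 15.3, 9.28 and 5.79 CPM in control pools (log2 2.11, edgeR adjusted p = 0.053). Without null 1 the log2 fold change of Mgp was 1.48. Efemp1, an extracellular matrix gene, and Hmox1, the haem-degrading enzyme, each had a log2 ratio of 1.15 (edgeR adjusted p = 0.053 and 0.055). On the lower side, Tshr, the thyrotropin receptor, was at 0.112 and 0.499 CPM in null pools, against 4.21, 3.98 and 4.40 CPM in control pools (log2 -3.73, SE 0.64, edgeR adjusted p = 0.053). Without null 1 it was -3.06, and without null 2 it was -5.15 and was called. Ptger3, a prostaglandin receptor gene, had a log2 ratio of -1.19 (edgeR adjusted p = 0.067). Gm47283, a gene model placed on the Y chromosome, was at 10.2 and 7.09 CPM in null pools, against 24.9, 21.1 and 16.0 CPM in control pools (log2 -1.26, edgeR adjusted p = 0.055). Null 2 held 0 counts of the 4 Y-linked genes summed above. Reads of Gm47283 are therefore not taken as a sign of a Y chromosome.

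The E14.5 differences were set beside those at E13.5, where edgeR called 25 genes higher (0.132% of those tested) and 33 lower (0.175%), 58 in all (0.307%). That total was 7 without E13.5 null 1, 12 without E13.5 null 2, 14 to 25 without a single E13.5 control, and 128 without E14.5 control 1. All 21 genes called at E14.5 had the same sign at E13.5, and 15 were called at both stages. That is 71.4% of the E14.5 list and 25.9% of the 58 genes called at E13.5. Both contrasts use the same spread per gene from 1 fit, so calls at the 2 stages are not separate tests. The 6 called at E14.5 alone were Actg2, Msln, Ackr3, Anxa1, Clec11a and Itm2a. Log2 fold changes at E14.5 and E13.5 were 1.52 and 1.51 for Lum, 1.99 and 1.66 for Acta2, -1.99 and -1.63 for Ntrk2, -2.53 and -3.67 for Barx1, and -3.42 and -5.99 for Tlx1. Of the 33 genes lower at E13.5, 12 had a log2 fold change under -1 at E14.5 and 12 lay between -0.5 and 0.5. Of the 25 genes higher at E13.5, 16 were over 1 and 0 lay between -0.5 and 0.5.

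The difference between the stages was tested directly. EdgeR called 0 genes for it, limma-voom 0 and DESeq2 3 (Htra3, Rtl3 and Gm18194, the last named from its result), and 454 genes (2.4%) had an unadjusted p under 0.05 by edgeR. No gene is therefore shown to differ in its genotype effect between E14.5 and E13.5 by edgeR, including Barx1 and Tlx1, whose fitted falls were smaller at E14.5 than at E13.5. The smallest unadjusted values belonged to Htra3, Ctsk and Rtl3. Ctsk, the matrix-degrading protease cathepsin K, was at 12.1 and 11.7 CPM in null pools, against 13.8, 14.8 and 15.6 CPM in control pools at E14.5, a log2 fold change of -0.31, against -1.67 at E13.5. Wnt5a and Htra1 likewise had -1.41 and -0.89 at E14.5, against -2.68 and -1.85 at E13.5, and Angpt1, a ligand that stabilises vessels, 0.92 against 2.19. Fgf9 had -0.14 at E14.5, against -1.21 at E13.5 (edgeR adjusted p = 0.29 at E13.5).

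**Figure D5:**
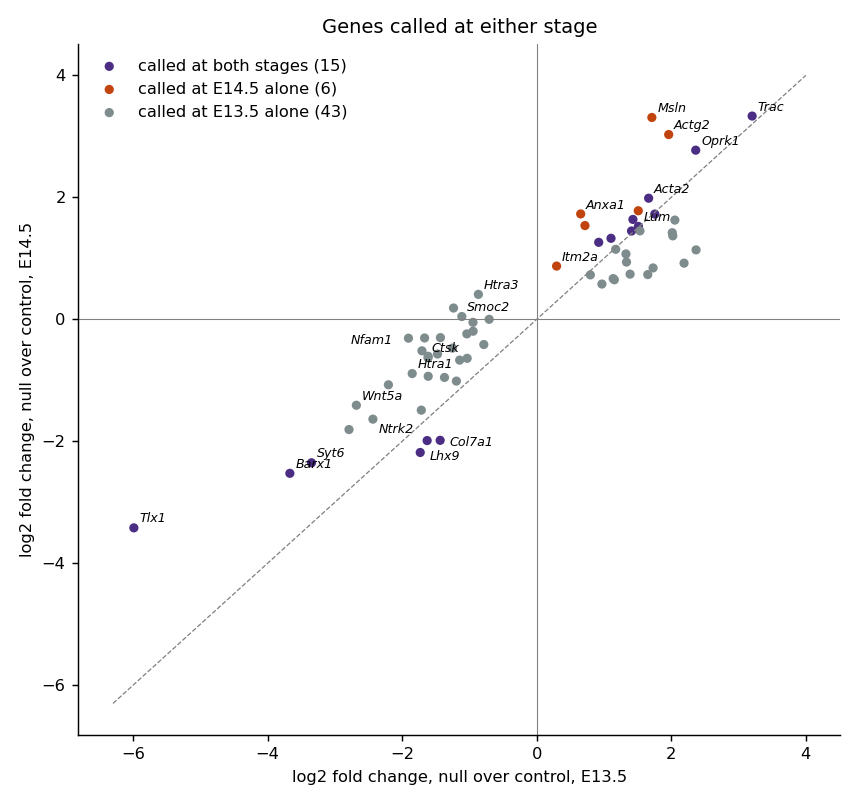
Log2 fold change, null over control, at E14.5 against that at E13.5 for the 64 genes called at either stage, with the dashed line marking equal values. The 15 genes called at both stages, in purple, lie in the upper right and lower left, and many genes called lower at E13.5 alone, in grey, lie near 0 at E14.5.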

How the data were processed

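The authors deposited a table of whole-number read counts per gene for 10 libraries of embryonic mouse pancreas. Per the labels' protocols, RNA was taken up in TriZol, cleaned with a Zymo Direct-zol kit and made into poly(A)-selected libraries with NEBNext Ultra II reagents. Per the submitters' processing notes, TopHat, HTSeq, DESeq2 and the build mm10 were used. Versions, roles and strand setting were "not given in the sources used here". Reads of antisense and overlapping genes, and of near-identical copies, may thus be shared. The authors' table held 0 columns of other series.

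Groups follow the labels, and all columns were matched by sample name. Genes were kept by edgeR's filterByExpr (minimum count 10, minimum total 15), scaled by TMM and fitted with edgeR 4.0.16 (R 4.3.3) as 4 group means over all 10 libraries, with quasi-likelihood tests on 6 residual degrees of freedom. Genotype contrasts at each stage and their difference were adjusted by Benjamini-Hochberg over 18898 genes. Per-pool differences use log2(CPM + 0.5). Printed SEs are the log2 fold change divided by the square root of F. The genes named are Fgf9, every called gene, up to 8 uncalled genes a direction with the smallest p and a mean of at least 1 CPM, in each of 42 gene lists the called members with up to 4 others by p and 3 by mean CPM, the 3 smallest p for the stage difference, and up to 12 genes a direction called at E13.5. Members and lists were chosen with earlier results of these data known. Coordinates are from GENCODE M21 (GRCm38, the same assembly as mm10), matched for 18885 of 18898 genes, and promoters from RefSeq. Alternatives were DESeq2 1.42.0, limma-voom (limma 3.58.1), DESeq2's median-ratio scaling in edgeR, no low-count filter, the 5 E14.5 libraries alone, a replicate block, and leaving out libraries. The fit was tested on simulated counts of 18266 genes. It called 36 of 97 genes set to differ 2-fold at E14.5 and 63 of 97 set to differ 4-fold, with 4 false calls. A gene not called may therefore still differ. Counting error at these depths is small beside the spread between pools, except for genes of a few CPM.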

Additional observations from a re-analysis of the deposited data

Results flagged for a closer look

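Among 294 genes named by rule, 7 (2.38%) had every null pool on one side of all control pools at E14.5 and on the opposite side at E13.5. Over all 18898 genes tested, 166 (0.878%) did so, and the named genes were in part picked for their stage difference or E13.5 result. The differences in log2 fold change, E14.5 minus E13.5, were 1.28 for Htra3, 1.42 for Rtl3, 1.04 for Wnt5b, 1.55 for Igfbp6, -0.45 for Lamc1, -0.37 for Jag1 and -0.58 for Plxna2. By edgeR's test of the difference between the stages none of the 7 passed, each with an adjusted p of 1, and the smallest unadjusted p was 5.7e-05, for Htra3. Htra3, a secreted serine protease gene, was at 51.0 and 51.9 CPM in null pools, against 40.9, 42.5 and 32.8 CPM in control pools at E14.5. Igfbp6, which binds insulin-like growth factors, was at 13.8 and 13.4 CPM in null pools, against 6.47, 6.40 and 7.35 CPM in control pools at E14.5.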

How the results depend on the processing

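All 21 genes called at E14.5 kept their sign under every alternative run, but the number of calls depended on the setting. Against 15 higher and 6 lower, there were 252 and 43 with DESeq2, 443 and 104 with no low-count filter, 0 and 2 with the 5 E14.5 libraries alone, and 15 and 6 with DESeq2's scaling in edgeR. Leaving out 1 library at a time gave 0 to 234 higher and 2 to 25 lower. The 58 genes called in either direction at E13.5 became 246 with DESeq2, 459 with no low-count filter and 7 to 128 with 1 library left out. The 0 genes that differed between the stages became 3 with DESeq2, 51 with no filter and 0 with any 1 library left out. Fgf9 changed sign, with -0.68 to 0.26 over the libraries left out in turn.

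The replicate block, which treats pools of the same number as pairs, gave 342 higher and 122 lower at E14.5, all 21 among them, 566 at E13.5 and 13 for the difference between the stages. Deviations of same-numbered pools at E14.5 correlated at 0.56 for number 1 and 0.31 for number 2, and those at E13.5 at 0.48 and 0.21. With 2 null pools a stage their deviations mirror each other, so these are not separate pairs, and null 2 correlated more with control 3, at 0.42 and 0.34. The labels do not say that a number marks a litter or day, so pairing was not assumed. With the block 9 smooth muscle, 9 fibroblast matrix, 7 liver, 5 acinar, 5 hormone and 1 duct gene were higher. The neural and glial, macrophage, angiogenic and skeletal muscle lists had 6 higher each. Spleen mesenchyme had 5 lower and 2 higher, mesothelium 5 lower and 3 higher, and retinoic acid 3 lower and 2 higher. In the progenitor and endocrine progenitor lists 1 gene each was lower. These counts stand beside the 342 higher and 122 lower among all 18898 genes tested.

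Leaving out both E14.5 pools numbered 1, an alternative picked with earlier results known, gave 57 higher, 19 lower, 303 at E13.5 and 4 stage differences. The summed Y-linked level as a covariate, chosen after seeing the data, gave 1 higher and 2 lower. Of the 21 genes, 2 were among them, both lower, and Fgf9 had a log2 fold change of 0.45. With no filter and the spread taken from the filtered genes, also chosen after seeing the data, 7 were higher, 4 lower and 30 called at E13.5. The cause of these changes was not tested. Over the values of named genes, 4495 kept their side of the threshold and moved by less than their SE if not called, 415 newly passed, 139 no longer passed, and 504 of genes not called moved by more than their SE. Single-library depth limits Tlx1, Trac and Msln, which rest on a few CPM in their lower group.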
